A study of Mus musculus with 33 samples.

Results

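The loop of Henle, the distal convoluted tubule and the connecting segment follow the proximal tubule along the nephron. The genes described here are 32 transporters, channels, receptors and regulators that mark those segments in the adult kidney, taken by symbol from a table of 35349 genes, and all 32 symbols were found. The table holds RNA sequencing read counts of whole mouse embryonic kidneys from 5 groups: Six2 heterozygous and wild-type kidneys at embryonic day 15.5 (E15.5, 4 specimens each), and Six2 knockout (5), heterozygous (5) and wild-type (6) kidneys at E11.5. Knockout kidneys were sampled at E11.5 alone. The Six2 allele, the strain and any pooling of kidneys are not given in the sources used here, nor is it stated whether every specimen is a separate animal. A kidney counted below is a specimen as labelled. The p-values therefore reflect how far these specimens differ, which may be partly technical. Whole kidneys were used, so for every value below fewer cells of a type and less RNA per cell cannot be told apart.

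Six2 encodes a transcription factor that keeps nephron progenitors from differentiating. The progenitors give rise to every nephron segment from the glomerulus to the connecting tubule, whereas the collecting duct, with its principal and intercalated cells, grows out of the ureteric bud. In the adult the thick ascending limb reabsorbs salt without water through the Slc12a1 cotransporter, the distal convoluted tubule reabsorbs salt through Slc12a3 and magnesium through Trpm6, and the connecting segment and collecting duct take up sodium through the epithelial sodium channel under aldosterone. At E11.5 the kidney is a ureteric bud that has begun to branch in a cap of progenitors and holds no mature nephron.

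Library totals ran from 10.82 to 42.07, in units of 1e+06 counts. Runs of 1 specimen were summed, and levels are CPM, counts per 1e+06 counts of the library, after scaling by the trimmed mean of M values. Six2 itself averaged 0.473 ± 0.134 CPM in knockout kidneys (SD, n = 5), 13.1 ± 2.88 in heterozygous (n = 5) and 25.0 ± 5.63 in wild-type kidneys (n = 6) at E11.5, and 6.15 ± 0.342 in heterozygous against 11.7 ± 0.834 in wild-type kidneys at E15.5 (n = 4 each). E11.5 libraries came from 2 batches, the replicate numbers of their titles. The E15.5 titles hold no such number. Each E15.5 specimen has 1 library in each of 2 series of titles, called batch 1 and batch 2 here. The model has no batch term across the stages, so stage and any difference in sequencing between the stages cannot be told apart. At E11.5 ribosomal RNA genes in batch 1 took 0.879% to 12.5% of the counts of knockout, 3.57% to 18.7% of heterozygous and 20.5% to 26.6% of wild-type libraries. In batch 2 of E11.5 they took 0.223% to 0.469%. These are 360 symbols, among them Yam1, Gm23935, Mir6236, Gm15564 and Lars2, which are annotated as other types and were added after seeing the data. The proximal tubule, which is also made from the progenitors, was detected at E15.5: its 10 markers summed to 611 to 1119 CPM in heterozygous and 747 to 846 CPM in wild-type kidneys at E15.5, and to 40.8 to 52.2 CPM in knockout, 54.6 to 61.4 in heterozygous and 42.6 to 55.2 in wild-type kidneys at E11.5.

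The promoters of the distal convoluted tubule genes shared the letters of 1 motif. RefSeq promoters (GRCm38.p6) were found for 27 of the 32 genes, with Bsnd, Ppp1r1a, Scnn1a, Hsd11b2 and Atp6v0d2 not matched, and the 250 bases before the start were searched on both strands for 4 motifs. GCCNNNGGC, the letters of an AP-2 site, was in all 7 distal convoluted tubule genes and in Foxi1, in 8 of 27 genes together (29.6%) against 13.6% of 27025 promoters, and in 0 of 9 thick ascending limb, 0 of 6 connecting and principal cell and 0 of 2 nuclear receptor genes. TGTTTAC, a forkhead motif, was in Slc12a1, Avpr2 and Atp6v1b1 (11.1%, against 3.09% of all promoters). GTTAATNAT, an HNF1 motif, was in Kcnj16 alone (3.7%, against 0.781%), and TCAAGGTCA, the extended element of the estrogen-related receptors, was in 0 of 27 (0.366% of all). These are counts of letters in a window and were given no test. Of the 7 windows Kcnj16 had a GC content of 42.8% and the others 54.4% to 70%. Of the 9 thick ascending limb windows Ptger3 had 62% and the others 39.6% to 50.4%. The 6 connecting and principal cell windows had 49.2% to 68.4%, and the part of GC content in the matches was not tested. The first-listed start of each gene was used. In Kcnj16 and in Esrrg 1 of the 4 listed promoters holds the AP-2 letters, and it is the first in Kcnj16 but not in Esrrg. The 170 bases before the start are shown for the 7 genes, 5′ to 3′ on the gene's strand, with matches in capitals. In Kcnj16 the capitals nearest the start mark the HNF1 letters on the opposite strand, and all other capitals mark the AP-2 letters:
Slc12a3 (chr8:94329038-94329207, plus strand): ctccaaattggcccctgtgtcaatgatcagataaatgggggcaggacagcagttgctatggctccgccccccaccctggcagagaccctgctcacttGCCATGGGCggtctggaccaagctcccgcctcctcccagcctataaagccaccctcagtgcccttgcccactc
Pvalb (chr15:78206401-78206570, minus strand): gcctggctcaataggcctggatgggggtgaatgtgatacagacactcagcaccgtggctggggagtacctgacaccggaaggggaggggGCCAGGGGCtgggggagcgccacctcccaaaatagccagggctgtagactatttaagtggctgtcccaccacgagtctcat
Trpm6 (chr19:18749560-18749729, plus strand): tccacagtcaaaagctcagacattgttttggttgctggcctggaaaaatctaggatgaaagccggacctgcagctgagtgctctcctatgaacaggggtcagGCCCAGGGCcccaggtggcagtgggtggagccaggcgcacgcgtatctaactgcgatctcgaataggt
Wnk1 (chr6:120038656-120038825, minus strand): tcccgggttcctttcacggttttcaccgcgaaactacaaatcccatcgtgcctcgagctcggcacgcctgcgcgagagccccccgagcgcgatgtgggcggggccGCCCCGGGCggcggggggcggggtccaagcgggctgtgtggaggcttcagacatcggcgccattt
Wnk4 (chr11:101260397-101260566, plus strand): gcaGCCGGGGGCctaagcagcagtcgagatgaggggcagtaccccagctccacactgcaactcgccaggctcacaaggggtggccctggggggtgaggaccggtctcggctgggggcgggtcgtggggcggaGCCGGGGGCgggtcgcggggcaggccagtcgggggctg
Kcnj10 (chr1:172341040-172341209, plus strand): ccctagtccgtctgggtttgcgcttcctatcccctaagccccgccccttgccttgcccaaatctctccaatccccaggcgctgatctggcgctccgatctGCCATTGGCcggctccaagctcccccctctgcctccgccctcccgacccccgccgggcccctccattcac
Kcnj16 (chr11:110967863-110968032, plus strand): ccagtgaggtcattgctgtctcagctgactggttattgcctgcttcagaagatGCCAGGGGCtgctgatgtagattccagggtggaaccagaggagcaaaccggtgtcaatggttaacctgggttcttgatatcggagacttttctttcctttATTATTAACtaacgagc

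The 7 genes that share these letters did not move together: as described below, 4 of them rose with age, 2 fell and Pvalb was not detected in wild-type kidneys. Of the genes encoding AP-2 factors, Tfap2b rose between E11.5 and E15.5 in wild-type kidneys (log2 fold change 0.95 ± 0.36 SE, edgeR adjusted p 0.0258), and Tfap2a had a value of -0.83 ± 0.39 (adjusted p 0.0659).

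Between the stages, most of the segment genes rose, many of them from a few counts. In wild-type kidneys 30 of the 32 genes had enough counts to test. At E15.5, 26 were higher than at E11.5 and 4 were lower, against 34.0% of 17362 genes tested called higher and 32.1% called lower (edgeR quasi-likelihood test, adjusted p under 0.05). Their median log2 fold change was 3.87, against -0.003 for all genes tested. The filter admits a gene with enough counts at 1 stage alone, and in the fit of the E11.5 kidneys 16 of the 32 genes passed it. A gene admitted on its E15.5 counts alone could hardly be called lower, so these counts and medians are a description. The change was above 3 on the log2 scale for 17 genes, between 1 and 3 for 7, between 0 and 1 for 2 and below 0 for 4. In heterozygous kidneys the counts were also 26 higher and 4 lower, against 33.1% and 31.1% of all genes, with a median of 3.58. Every wild-type E15.5 specimen lay above every wild-type E11.5 specimen for 25 of the 32 genes, against 24.2% of the genes tested, and below for the 4 that fell, against 19.9%. The exceptions were Ptger3, Avpr2 and Pvalb. At E11.5, 19 of the 32 genes totalled over 10 counts in the 5 knockout kidneys, 22 in the 5 heterozygous kidneys and 21 in the 6 wild-type kidneys.

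Ordered by level per kb of gene length, Mal led the wild-type E15.5 kidney at 28.2 ± 0.506 CPM per kb (SD, n = 4). Slc12a1 followed at 22.3 ± 0.396, Tmem52b at 18.3 ± 0.536, Scnn1b at 14.9 ± 0.373 and Scnn1g at 10.6 ± 0.440 CPM per kb. None of these 5 genes overlapped the next one in the order. Wnk1, Kcnj16 and Hsd11b2 came next at 9.36, 8.68 and 8.65 CPM per kb, with Wnk1 overlapping Kcnj16 and Kcnj16 overlapping Hsd11b2. Ppp1r1a (5.49), Atp6v1b1 (4.64), Kcnj1 (4.09), Esrrg (3.57) and Bsnd (3.02 CPM per kb) filled the middle, each apart from its neighbours. From Cldn16 (2.19) through Wnk4, Foxi1, Umod, Klk1, Ptger3, Atp6v0d2, Nr3c2 and Slc12a3 to Scnn1a (0.902 CPM per kb) each gene overlapped the next, so neighbours in this run are not resolved although its ends are apart. Casr (0.761) and Egf (0.719), Kcnj10 (0.463) and Trpm6 (0.456), and Slc26a4 (0.352) and Trpv5 (0.344 CPM per kb) were overlapping pairs. Esrrb (0.101), Avpr2 (0.0435) and Pvalb (0) closed the list.

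The order in heterozygous kidneys was nearly the same (Spearman's rho 0.998 over 32 genes), and level at E15.5 and size of the rise went little together (rho 0.243 over the 30 tested genes). Mal, highest at E15.5, was only 17th of 30 by rise, since it already stood at 2.72 CPM per kb in wild-type kidneys at E11.5. Hsd11b2 and Wnk1, at 18.3 and 15.2 CPM per kb, were the highest of the 32 genes in wild-type kidneys at E11.5.

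**Figure D1:**
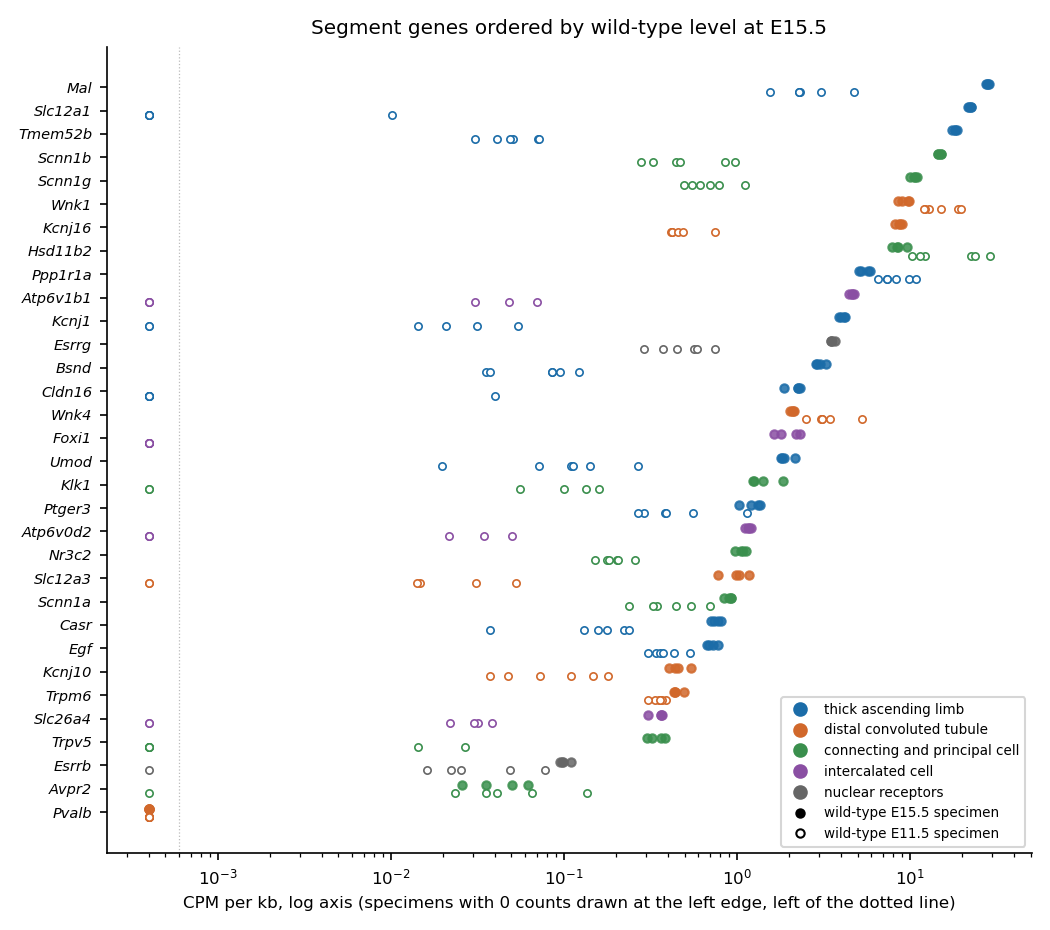
Level of each of the 32 genes in CPM per kb of gene length on a log axis, in single wild-type specimens. Points are filled at E15.5 (n = 4) and open at E11.5 (n = 6). Genes are ordered by the mean E15.5 level and coloured by segment, with values of 0 drawn left of the dotted line. Mal, Slc12a1 and Tmem52b stand at the high end, with E15.5 means of 28.2, 22.3 and 18.3 CPM per kb. In Wnk1, Wnk4, Hsd11b2 and Ppp1r1a all E11.5 points lie to the right of all E15.5 points.

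Of the 11 thick ascending limb genes, 10 rose and 1 fell, with a median log2 fold change of 4.05. Slc12a1, the sodium, potassium and chloride cotransporter that the loop diuretics block, had 131, 127, 127 and 131 CPM in the 4 wild-type kidneys at E15.5, against 1 count in 1 of the 6 wild-type kidneys at E11.5. Pooled over specimens that is 31531 against 1 count, a ratio of 13380 with a 95% exact interval of 2401 to 528400, which like the other intervals covers counting error only. It was the largest rise of the 30 tested genes, and the 4 wild-type kidneys at E15.5 lay close together. In heterozygous kidneys Slc12a1 stood at 101 to 164 CPM at E15.5, against 2 counts in 5 kidneys at E11.5.

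Kcnj1, the ROMK channel that returns potassium to the lumen, had 13.7, 13.8, 12.8 and 13.2 CPM in wild-type kidneys at E15.5, against 0 to 3 counts per kidney at E11.5, a pooled ratio of 197 (95.7 to 491). Cldn16, a tight junction protein for magnesium and calcium, had 2.67, 2.22, 2.74 and 2.68 CPM in wild-type kidneys at E15.5, against a single count in 6 kidneys at E11.5 (ratio 269.8, 48.25 to 10670). Tmem52b, a membrane protein enriched in distal nephron, had 52.9, 54.3, 50.6 and 52.8 CPM in wild-type kidneys at E15.5, against 1 to 4 counts per kidney at E11.5, and its log2 fold change was 8.37 ± 0.16 (SE, adjusted p 3.09e-21). The stages did not overlap in any of these 3 genes, and at E11.5 all 3 were near 0 in wild-type kidneys.

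Bsnd, which encodes the accessory subunit barttin, rose by 5.28 ± 0.27 on the log2 scale. Umod, the uromodulin secreted into the urine by this segment, stood at 4.67, 5.42, 4.55 and 4.51 CPM in wild-type kidneys at E15.5, against a lowest, median and highest level of 0.0493, 0.278 and 0.671 CPM at E11.5. Its rise was 4.05 ± 0.34, and in the order of levels it came 17th, well behind Slc12a1. Umod overlaps a gene on the opposite strand, as do Slc12a1, Egf, Wnk1, Wnk4, Scnn1b, Avpr2, Klk1, Nr3c2, Trpm6 and Esrrg, and since the strand setting of the counts is not given in the sources used here, reads of the 2 strands cannot be told apart in those genes.

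The thick ascending limb genes with lower rises were already measurable at E11.5. Mal, a lipid raft protein of apical transport, rose by 3.40 ± 0.17 on the log2 scale and Casr, the calcium-sensing receptor, by 2.23 ± 0.25. Ptger3, a prostaglandin E receptor, rose by 1.20 ± 0.28, although 1 wild-type kidney at E11.5 reached 2.41 CPM, within the E15.5 range of 2.18 to 2.90 CPM. Egf, the growth factor precursor of this limb and the distal convoluted tubule, rose by 0.94 ± 0.18. Ppp1r1a, an inhibitor of protein phosphatase 1, was the one gene that fell: it had 7.66, 6.86, 6.61 and 7.48 CPM in wild-type kidneys at E15.5, against 8.55 to 14.3 CPM with a median of 10.3 at E11.5. The stages did not overlap, and its log2 fold change was -0.63 ± 0.12 (SE, adjusted p 5.11e-05).

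The distal convoluted tubule group was split. Of its 7 genes 6 were tested, 4 rose and 2 fell, with a median log2 fold change of 1.34. Slc12a3, the sodium and chloride cotransporter blocked by thiazides, had 3.94, 2.62, 3.32 and 3.45 CPM in wild-type kidneys at E15.5, against 0 to 3 counts per kidney at E11.5 (pooled ratio 50, 24.2 to 125, which is 825 against 7 counts). Kcnj16 and Kcnj10, potassium channel subunits that pair in the basolateral membrane, rose by 4.12 ± 0.20 and 2.32 ± 0.30 on the log2 scale. Trpm6, the apical magnesium channel, had 2.90, 2.90, 2.86 and 3.27 CPM in wild-type kidneys at E15.5, against 2.01 to 2.56 CPM at E11.5. Its rise of 0.36 ± 0.12 was the lowest of the 26 (adjusted p 0.00974), and with the E11.5 kidneys of batch 1 alone it was 0.28 with an adjusted p of 0.0977.

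The kinases that control Slc12a3 fell instead. Wnk1, of which the kidney also makes a short form that gene counts do not separate, had 144, 157, 136 and 155 CPM in wild-type kidneys at E15.5, against 192 to 312 CPM with a median of 223 at E11.5, a log2 fold change of -0.69 ± 0.08 (SE, adjusted p 3.75e-08). Wnk4 had 8.47, 8.71, 8.81 and 8.97 CPM at E15.5, against 10.5 to 22.0 CPM with a median of 13.0 at E11.5 (-0.73 ± 0.14, adjusted p 7.50e-05). Neither gene's stages overlapped. Against the E11.5 kidneys of batch 1 alone the values of Wnk1 and Wnk4 were -0.91 and -0.88, and against batch 2 alone -0.41 and -0.51, each still called. Pvalb, the calcium buffer of the early distal convoluted tubule, had 0 counts in all 4 wild-type E15.5 kidneys, where 3 counts would be 0.0123 CPM over the group. Outside wild-type kidneys it had 1 count in 1 heterozygous kidney at E15.5 and 10 counts in 1 heterozygous kidney at E11.5, and 0 in all the others.

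In the connecting and principal cell group 6 of 7 tested genes rose and 1 fell, with a median of 3.87. Scnn1b and Scnn1g, the beta and gamma subunits of the epithelial sodium channel, lie near each other on mouse chromosome 7 (chr7:121865038-121918514 and chr7:121734479-121768475, mm10), and they rose by 4.81 ± 0.22 and 3.87 ± 0.18 on the log2 scale. Scnn1a, the alpha subunit, rose by only 1.19 ± 0.24. At E15.5 Scnn1a stood at 0.902 ± 0.0372 CPM per kb in wild-type kidneys, against 14.9 ± 0.373 for Scnn1b and 10.6 ± 0.440 for Scnn1g (SD, n = 4), so the subunits of this channel differed in level by more than their spread. At E11.5 the levels of Scnn1a, Scnn1b and Scnn1g in wild-type kidneys were 0.435, 0.560 and 0.712 CPM per kb.

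Trpv5, the apical calcium channel, had 1.26, 0.988, 1.05 and 1.19 CPM in wild-type kidneys at E15.5, against 2 counts in 6 kidneys at E11.5 (ratio 58.5, 16.05 to 485.8). Klk1, tissue kallikrein, which belongs to a cluster of near-identical genes and is uncertain for that reason, rose by 4.35 ± 0.37. Nr3c2, the mineralocorticoid receptor, rose by 2.38 ± 0.14. Hsd11b2, the enzyme that keeps cortisol or corticosterone off that receptor, moved the other way: it had 14.7, 15.8, 15.6 and 18.0 CPM in wild-type kidneys at E15.5, against 19.1, 21.4 and 22.7 CPM in the batch 2 kidneys and 41.9, 44.1 and 53.9 CPM in the batch 1 kidneys at E11.5. All 6 early kidneys lay above all 4 later ones, and its log2 fold change was -0.96 ± 0.11 (SE, adjusted p 6.14e-08). It was -1.58 against batch 1 alone and -0.40 against batch 2 alone, both called, so the size of this fall differed between the batches. Avpr2, the vasopressin receptor of the principal cell, had 31 counts in 4 wild-type kidneys at E15.5 and 17 in 6 at E11.5, a ratio of 0.774 with an interval of 0.415 to 1.49. In heterozygous kidneys it had 27 counts in 4 kidneys at E15.5 and 3 in 5 at E11.5, a ratio of 4.66 with an interval of 1.43 to 24. Avpr2 was too low to test, and the ratio of the stages lay below 1 in wild-type and above 1 in heterozygous kidneys, with the wild-type interval reaching across 1.

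All 4 intercalated cell genes rose, with a median of 6.54. Foxi1, the forkhead factor that specifies these acid and base secreting cells, had 5.46, 3.87, 4.25 and 5.19 CPM in wild-type kidneys at E15.5, against 0 counts in all 6 kidneys at E11.5. Set against 3 counts over the E11.5 group, it was at least 164-fold higher. Atp6v1b1, a subunit of the proton pump of these cells, had 9.05, 8.98, 9.30 and 8.66 CPM in wild-type kidneys at E15.5, against 0 to 2 counts per kidney at E11.5 (ratio 187, 79.8 to 575). The d2 subunit of the same pump, Atp6v0d2, had 3.3, 3.19, 3.04 and 3.23 CPM at E15.5, against 0 to 2 counts per kidney at E11.5 (ratio 66.1, 28.2 to 204). Slc26a4, the pendrin exchanger of the base-secreting type, had 0.95 to 1.15 CPM at E15.5, against 7 counts in 6 kidneys at E11.5 (ratio 16.1, 7.72 to 40.5). In all 4 genes the stages were apart, with the pump subunits and Foxi1 ahead of the exchanger in level per kb.

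Atp6v0d2 is also known from osteoclasts, and the osteoclast markers were present at low levels: the 4 markers summed to 6.07 to 6.77 CPM in heterozygous and 5.68 to 6.88 CPM in wild-type kidneys at E15.5, against 5.22 to 22.9 CPM in wild-type kidneys at E11.5, and their part in the Atp6v0d2 values was not tested. Of the 2 nuclear receptors, Esrrg, an orphan receptor of the estrogen-related family, rose by 2.91 ± 0.14 on the log2 scale. Esrrb, its relative in the thick ascending limb, was at 0.577 to 0.669 CPM in wild-type kidneys at E15.5, against 0 to 0.472 CPM at E11.5. Its rise of 1.51 ± 0.53 had an adjusted p of 0.0166, and the call was lost without wild-type replicate 4 at E11.5 (1.30, adjusted p 0.0557).

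**Figure D2:**
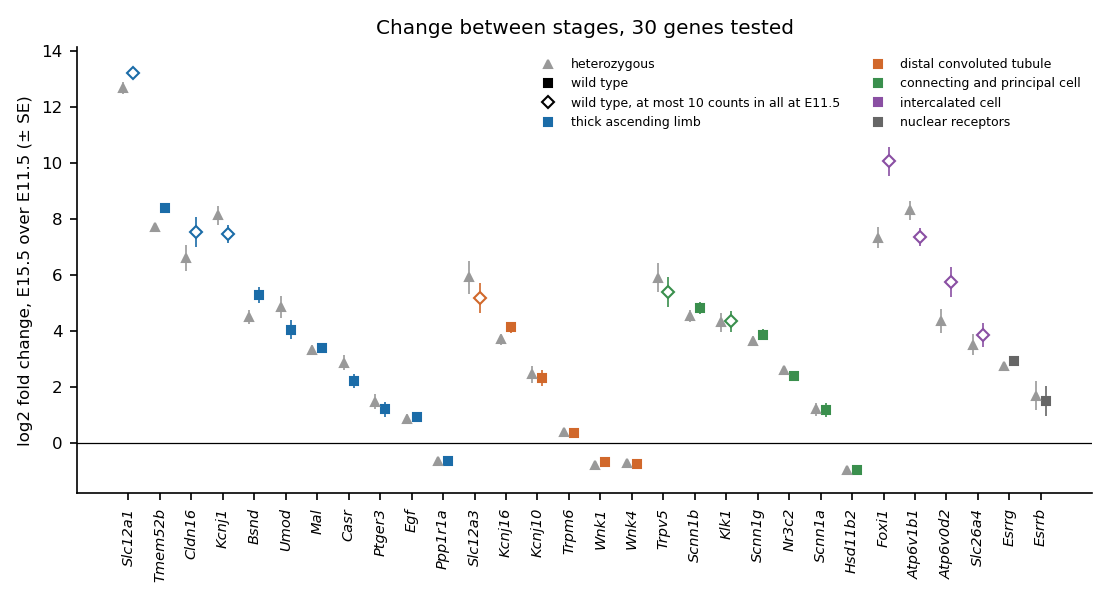
Log2 fold change of E15.5 over E11.5 with its SE for the 30 tested genes, grouped by segment, in heterozygous kidneys (grey triangles) and in wild-type kidneys (squares, or open diamonds where the wild-type E11.5 kidneys held 10 counts or fewer in all). Slc12a1 is highest in both genotypes, at 12.67 and 13.18, and the 4 genes below 0 are Ppp1r1a, Wnk1, Wnk4 and Hsd11b2.

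Most of the other genes known from these segments also rose. Of 43 such genes 41 were tested, and in wild-type kidneys 36 rose and 3 fell, with a median log2 fold change of 2.07. Over all genes tested 34.0% were called higher and 32.1% lower. Those that rose included S100g, a calcium carrier of the connecting segment (9.19 ± 0.40), the water channel Aqp2 (7.73 ± 0.53) and Fxyd2, the gamma subunit of the sodium pump (6.29 ± 0.15). Over the 24 kidneys the genes whose log2 levels ran closest to the mean of the 8 segment genes with the largest rise were S100g, Spink3, Slc34a1, Slc6a18 and Mep1a, with Pearson's r from 0.9991 to 0.9994 among 17332 candidates. These values describe the contrast of 2 stages in shared libraries. Within the 8 kidneys at E15.5 the same r ran from 0.935 to 0.982. Slc34a1, Slc6a18 and Mep1a are genes of the proximal tubule.

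At E15.5 no segment gene was called between the genotypes. Of 30 tested genes 0 differed between heterozygous and wild-type kidneys, against 0.570% of 18244 genes tested (104 genes by edgeR's quasi-likelihood test, and 1491 genes at an unadjusted p under 0.05). The median log2 difference of the segment genes was 0.03 and the values ran from -0.39 for Slc12a3 to 0.25 for Klk1. Slc12a3 had 4.4, 2.16, 3.07 and 0.778 CPM in heterozygous kidneys and 3.94, 2.62, 3.32 and 3.45 CPM in wild-type kidneys (-0.39 ± 0.24 SE, adjusted p 0.736). The genotypes overlapped, and the heterozygous kidneys spread over more than the wild-type range on both sides. Hsd11b2 had 15.4, 13.5, 12.6 and 12.6 CPM in heterozygous kidneys against 14.7, 15.8, 15.6 and 18.0 CPM in wild-type kidneys (-0.25 ± 0.07, adjusted p 0.262). Egf was the one of the 30 tested genes whose groups did not overlap, where 2.21% of all genes tested lay entirely below in heterozygous kidneys. It stood at 3.15, 3.2, 3.12 and 2.35 CPM in heterozygous kidneys against 3.22, 3.48, 3.73 and 3.33 CPM in wild-type kidneys (-0.22 ± 0.09, adjusted p 0.567). A p above the threshold does not show that the genotypes were alike. The difference of the heterozygous effects between E15.5 and E11.5 called 0 of 30 segment genes, against 0.00576% of all genes (1 gene, and 594 at an unadjusted p under 0.05).

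The heterozygous kidneys at E15.5 were spread more widely than the wild-type kidneys in most segment genes, a pattern that was noticed in the values and is given without a test. Levels here were scaled over the 8 kidneys at E15.5. Heterozygous replicate 1 was the highest and replicate 4 the lowest of the 4 heterozygous kidneys in 19 of 30 segment genes (63.3%), against 14.3% of all genes tested. Replicate 4 was the lowest of all 8 kidneys in 22 genes (73.3%, against 17.6% of all genes) and replicate 1 the highest of all 8 in 18 (60%, against 16%). The median coefficient of variation of the segment genes was 15.6% in heterozygous and 6.24% in wild-type kidneys, whereas over all genes it was 5.36% in heterozygous and 4.77% in wild-type kidneys. Each kidney has 1 library in each series of titles, and the pairing was taken from the labels. With the group means of each batch taken out, the 2 libraries of 1 kidney correlated at 0.193 to 0.645. Libraries of different kidneys of 1 group ran from -0.402 to 0.142. The same order of the replicates 1 and 4 was seen in 16 of 30 genes with the batch 1 runs (53.3%, all genes 12.5%) and in 18 of 30 with the batch 2 runs (60%, all genes 13.3%).

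The gap between the replicates 1 and 4 differed by gene. Slc12a3 was 5.62 times as high in replicate 1 as in replicate 4, Trpv5 2.54 times, Kcnj1 1.98 times, Umod 1.85 times, Atp6v0d2 1.85 times and Foxi1 1.78 times. Kcnj1, for instance, had 18.4, 12.9, 12.9 and 9.23 CPM in heterozygous kidneys, against 13.7, 13.8, 12.8 and 13.2 CPM in wild-type kidneys. In Tmem52b (1.15), Wnk4 (1.07), Wnk1 (1.03), Ptger3 (0.99), Trpm6 (0.901) and Klk1 (0.762) the replicates 1 and 4 differed less or ran the other way. By segment, the order of replicates was seen in 9 of 11 thick ascending limb genes, 3 of 6 in the distal convoluted tubule, 4 of 7 in the connecting and principal cell group, 2 of 4 in intercalated cells and 1 of 2 nuclear receptors.

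Markers of some other cell types moved along the same kidneys. The proximal tubule list showed the order in 9 of 10 genes, with a median ratio of 2.09, and its sum was 1119, 903, 829 and 611 CPM in the heterozygous replicates 1 to 4, against 846, 747, 777 and 806 CPM in the wild-type replicates 1 to 4. The nephron progenitor list showed it in 0 of 6 genes (median ratio 0.889), with sums of 154 to 168 CPM in heterozygous and 203 to 211 CPM in wild-type kidneys. Skeletal muscle markers ran against it, with a median ratio of 0.28 and sums of 8.02, 14.8, 15.1 and 21.5 CPM in the heterozygous replicates 1 to 4, against 10.2 to 15.2 CPM in wild-type kidneys, and no marker of these 3 lists was at 0 in any of these kidneys. The order was also seen in 7 of 11 ureteric trunk and collecting duct genes (63.6%) and 4 of 7 podocyte genes (57.1%). Among the other genes of these segments, some of which are in the trunk list, it was seen in 23 of 41 (56.1%). It was seen in 1 of 8 early nephron, 0 of 5 ureteric tip and 0 of 6 renal stroma genes. Heterozygous replicate 4 was the only female of its group. Wild-type replicate 2, the only wild-type female, was the lowest of the 4 wild-type kidneys in 11 of 30 segment genes and the highest in 9. The part of any of these in the spread was not tested.

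**Figure D3:**
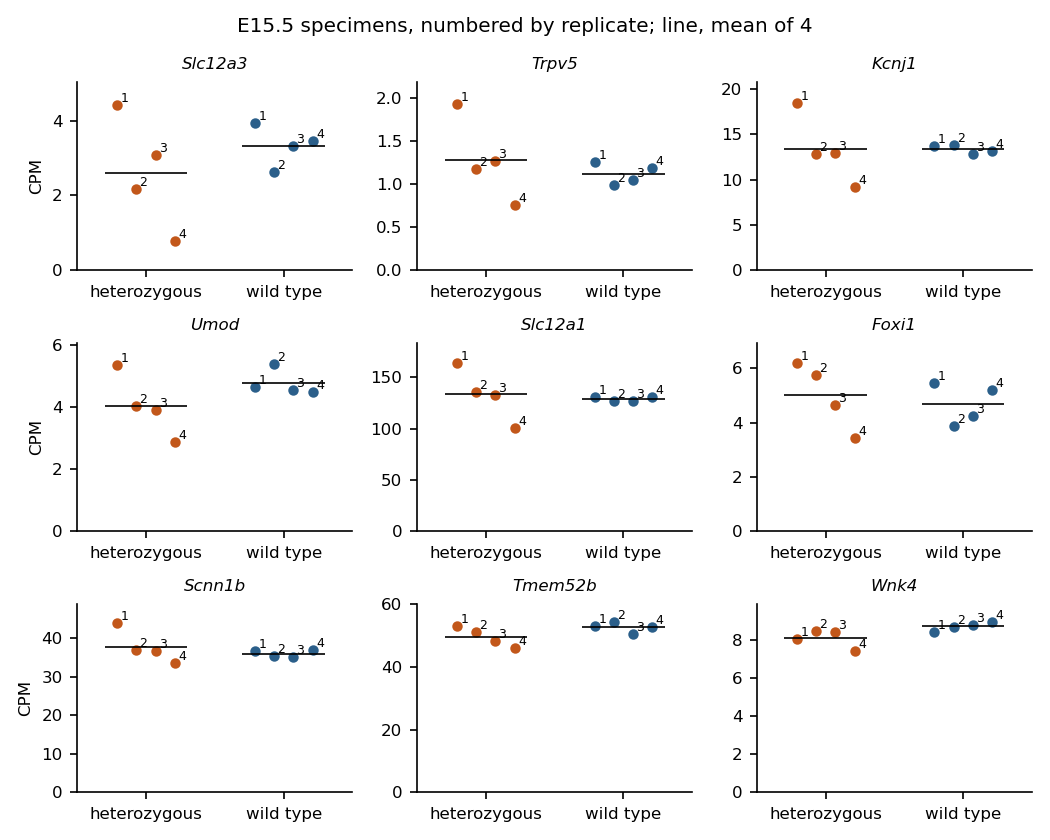
CPM of 9 segment genes in the single specimens at E15.5, heterozygous at the left and wild type at the right of each panel. Points are numbered by replicate and a line marks each group's mean (n = 4 each). In Slc12a3, Trpv5, Kcnj1, Umod and Foxi1 heterozygous replicate 1 is at or near the top and replicate 4 is lowest, while the wild-type points lie closer together in Trpv5 and Kcnj1.

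At E11.5, knockout kidneys differed from wild-type kidneys in 6 of the 16 segment genes that could be tested. Mal, Kcnj16, Scnn1b and Scnn1g were higher, against 3.06% of 16141 genes called higher, and Casr and Ppp1r1a were lower, against 4.03% called lower. The median log2 fold change of the 16 genes was 0.10, against -0.002 for all genes. The intercalated cell genes could not be tested at this stage. Mal had 17.0, 9.30, 16.3, 17.0 and 15.1 CPM in knockout kidneys, against 4.33 to 13.3 CPM with a median of 6.44 in wild-type kidneys (1.02 ± 0.21 SE, adjusted p 0.00561). Its second knockout kidney and the highest wild-type kidney overlapped. Kcnj16 had 5.94, 3.58, 4.44, 4.94 and 4.53 CPM in knockout kidneys, against 1.64 to 2.97 CPM with a median of 1.74 in wild-type kidneys, with no overlap (1.23 ± 0.26, adjusted p 0.00727).

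The sodium channel subunits beta and gamma were both higher without Six2. Scnn1b had 3.02, 3.00, 3.27, 2.75 and 2.21 CPM in knockout kidneys, against 0.681 to 2.36 CPM with a median of 1.11 in wild-type kidneys (1.00 ± 0.26, adjusted p 0.0261). Scnn1g had 3.43, 3.87, 4.44, 4.71 and 4.3 CPM in knockout kidneys, against 1.50 to 3.35 CPM with a median of 1.98 in wild-type kidneys (0.94 ± 0.24, adjusted p 0.0226). The groups were apart for Scnn1g, and overlapped for Scnn1b in 1 knockout and 1 wild-type kidney. Scnn1a, the alpha subunit, had 0.925 to 2.24 CPM in knockout kidneys and 0.985 to 2.91 CPM in wild-type kidneys and was not called.

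Casr had 0.102, 0.194, 0.123, 0.112 and 0 CPM in knockout kidneys, which is 8 counts in all, against 0.178 to 1.13 CPM with a median of 0.794 in wild-type kidneys, which is 79 counts. The lowest wild-type kidney was within the knockout range, and the other 5 were above it. Its log2 fold change was -2.84 ± 0.54 (SE, adjusted p 0.00329). Ppp1r1a had 6.56, 6.01, 7.46, 7.74 and 10.4 CPM in knockout kidneys, against 8.55 to 14.3 CPM with a median of 10.3 in wild-type kidneys (-0.48 ± 0.13, adjusted p 0.0303). Hsd11b2 had 31.0, 33.9 and 35.6 CPM in the batch 1 and 18.6 and 19.3 CPM in the batch 2 knockout kidneys, against 41.9, 44.1 and 53.9 CPM and 22.7, 21.4 and 19.1 CPM in the wild-type kidneys of the same batches, and missed the threshold (-0.35 ± 0.10, adjusted p 0.0537). It was called in 6 alternatives, among them DESeq2 (-0.36, adjusted p 0.0187) and the prefix of the library titles as block in place of batch (-1.03, adjusted p 0.0274). The prefix G6 was carried by knockout replicates 2, 3 and 5 alone. Under that block the difference therefore rests on knockout replicates 1 and 4. Knockout replicate 4 was in batch 2, and the wild-type replicates 1 and 2 with the same prefix were in batch 1. Umod, too low for the filter, had 0 counts in all 5 knockout kidneys, against 1 to 13 counts per kidney and 31 in all in the 6 wild-type kidneys, and 0 to 9 per kidney and 17 in all in the 5 heterozygous kidneys. Set against 3 counts over the knockout group, Umod was at least 8.08-fold lower in knockout than in wild-type kidneys, and without the filter its adjusted p was 0.00716.

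These calls rest on both batches together. Within batch 1 alone Mal was called and the others were not, with log2 values of 1.39 for Mal, 0.98 for Kcnj16, 1.04 for Scnn1b, 0.98 for Scnn1g and -0.43 for Ppp1r1a, while Casr was too low to test. Within batch 2 none was called, with 0.84 for Mal, 1.50 for Kcnj16, 0.87 for Scnn1b, 1.02 for Scnn1g, -3.76 for Casr and -0.41 for Ppp1r1a. The directions were the same in both batches wherever a value was had. Without the libraries above 5% ribosomal RNA, Casr alone was called (-3.28, adjusted p 0.0239). With single kidneys left out, Mal and Casr were called each time. Kcnj16 lost its call without knockout replicate 5 (adjusted p 0.0529), and Scnn1g without knockout replicate 3, 4 or 5 (0.0549 to 0.0941). Scnn1b lost it without wild-type replicate 1, 2 or 5 or knockout replicate 3 or 5 (0.0527 to 0.127). Ppp1r1a lost it without wild-type replicate 1, 2, 5 or 6 or knockout replicate 1, 2 or 4 (0.0519 to 0.0985). With the prefix of the library titles as block in place of batch, Mal alone of these 6 genes stayed called. Casr was -2.20 with an adjusted p of 0.133, Kcnj16 1.11 (0.0986) and Scnn1b 0.95 (0.146). Scnn1g was 0.91 (0.142) and Ppp1r1a -0.34 (0.391). Of the 16 tested genes 2, Kcnj16 and Scnn1g, lay entirely above wild-type kidneys, against 1.23% of all genes tested, and 0 lay entirely below, against 2.00%.

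Markers of other cell types also differed in these kidneys. The ureteric trunk and collecting duct list, which shares no gene with the 32, had 4 of 10 tested genes higher and 0 lower in knockout kidneys, with sums of 274 to 421 CPM in knockout, 209 to 299 in heterozygous and 166 to 370 in wild-type kidneys. In it Aqp2 was at 0 in all knockout kidneys, and 1 gene of the list was also at 0 in each heterozygous kidney. In wild-type kidneys 0 to 1 genes of the list were at 0. Macrophage markers were higher in 9 of 9 genes, with sums of 110 to 252 CPM in knockout and 74.4 to 149 in wild-type kidneys, 4 of 8 early nephron markers were higher and 0 lower, with sums of 322 to 450 CPM in knockout and 223 to 335 in wild-type kidneys, and 3 of 5 ureteric tip markers were lower and 0 higher, with sums of 205 to 311 CPM in knockout and 278 to 415 in wild-type kidneys. In the nephron progenitor list 6 of 6 markers were lower, with sums of 106 to 169 CPM in knockout and 279 to 407 in wild-type kidneys. With the trunk level as a covariate in the edgeR fit, Mal (0.64, adjusted p 0.0280) and Casr (-2.95, adjusted p 0.00657) were called. Kcnj16 (0.95), Scnn1b (0.66), Scnn1g (0.59) and Ppp1r1a (-0.52, adjusted p 0.0508) were not, although the value of Ppp1r1a did not shrink. This covariate was chosen after seeing the data, and genes in it differ between the genotypes, so these calls do not measure its part. The part of the trunk, macrophage, early nephron, tip and progenitor levels was not tested. Of the 43 other genes of these segments 35 were tested in knockout kidneys, 9 were higher and 0 lower. Over all genes tested 3.06% were called higher and 4.03% lower. This list shares Aqp2, Aqp3, Calb1, Gata3 and Tfcp2l1 with the trunk list, so the 2 counts are not separate. Its largest rises were in Cldn10, a cation-permeable claudin of the thick ascending limb (1.96 ± 0.24), Aqp4 (1.45 ± 0.28), Tfcp2l1, a factor of collecting duct differentiation (1.27 ± 0.19), and Kcnma1 (1.01 ± 0.20).

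**Figure D4:**
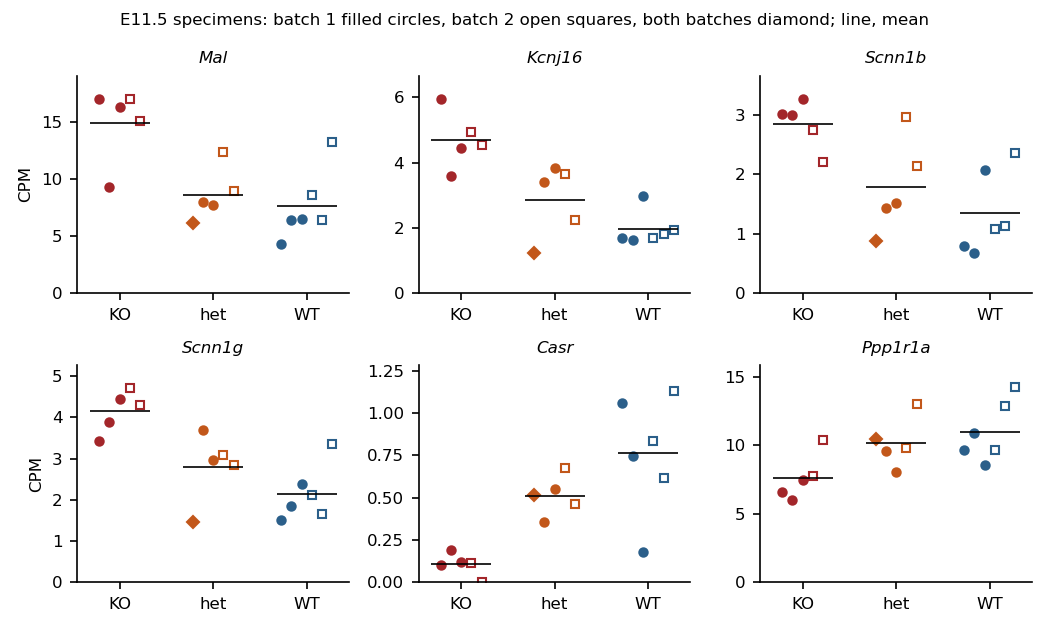
CPM at E11.5 of the 6 segment genes called between knockout and wild-type kidneys, with knockout (n = 5), heterozygous (n = 5) and wild-type (n = 6) kidneys from left to right, batch 1 as filled circles, batch 2 as open squares, the kidney run in both as a diamond and a line at each mean. Knockout kidneys lie above all wild-type kidneys in Kcnj16 and Scnn1g, and Casr in knockout kidneys stays at or below 0.194 CPM.

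Heterozygous kidneys at E11.5 gave 0 calls in the 16 tested segment genes, against 0.0681% of all genes (11 genes by edgeR, and 1332 at an unadjusted p under 0.05). Their values for the genes called in the knockout were 0.21 ± 0.21 for Mal, 0.57 ± 0.27 for Kcnj16, 0.53 ± 0.26 for Scnn1b, 0.38 ± 0.24 for Scnn1g, -0.52 ± 0.38 for Casr and -0.12 ± 0.13 for Ppp1r1a (log2, SE), and both comparisons share the wild-type kidneys. Set directly against heterozygous kidneys, knockout kidneys differed in 1 of 16 genes, against 3.69% of all genes. That gene was Casr, with 0 to 0.194 CPM in knockout kidneys against 0.514, 0.357, 0.549, 0.677 and 0.464 CPM in heterozygous kidneys, without overlap, which held in this direction for 2.63% of all genes (-2.32 ± 0.58, adjusted p 0.0356). The call was lost in 13 of the 25 alternatives that gave an adjusted p, among them leaving out any 1 of the 5 heterozygous kidneys (adjusted p 0.0507 to 0.0822) or knockout replicate 1, 3, 4 or 5 (0.0549 to 0.163), and the title prefix block (-1.46, adjusted p 0.287). Mal had 6.15, 7.97, 7.69, 12.3 and 8.96 CPM in heterozygous kidneys, below all but 1 of the knockout kidneys, and its difference was 0.81 ± 0.22 (adjusted p 0.0567).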

How the data were processed

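Whole kidneys gave RNA (RNeasy micro kit) for Illumina sequencing, per the labels. The authors deposited raw counts for each gene symbol, with gene lengths. STAR 2.4.0h1, featureCounts 1.4.6 and build mm10 are named, per the submitters' processing notes. The annotation, strand setting and treatment of multiply mapped reads are not given in the sources used here.

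The 33 libraries were summed to 24 specimens (10.82 to 65.11 each, in units of 1e+06 counts). Genes passing filterByExpr (minimum count 10, minimum total 15) entered edgeR 4.0.16 (R 4.3.3, TMM scaling, quasi-likelihood test, two-sided, Benjamini-Hochberg over all genes tested, 0.05), with sex and, at E11.5, batch in the model. The E11.5 batch is the replicate number of the titles and so the replicate block: residuals of different genotypes had a median correlation of 0.368 within a batch and -0.378 between batches. Gene positions came from GENCODE vM21. The fit was tested on simulated data. Pooled ratios carry exact 95% intervals. The genes, the lists and the rule for genes given in full (the 8 largest rises, all that fell, all called between genotypes, those not detected) were chosen with earlier results of these data known. Alternatives included DESeq2 1.42.0, other scalings and filters, single batches and leaving out each specimen.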

Additional observations from a re-analysis of the deposited data

Results flagged for a closer look

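Of 105 groups of 4 to 6 kidneys in which a segment gene was measured, 8 held 1 kidney far from the rest of its group by Dixon's ratio, and chance alone gives about 1 in 20. In heterozygous kidneys at E15.5 Egf was lowest in replicate 4, at 2.35 CPM, with the next at 3.12 CPM. In knockout kidneys at E11.5 Mal was lowest in replicate 2, at 9.3 CPM, with the next at 15.1 CPM. In wild-type kidneys at E15.5 Cldn16 was lowest in replicate 2 (2.22 CPM, next 2.67), Slc26a4 was lowest in replicate 1 (0.95 CPM, next 1.13) and Trpm6 was highest in replicate 4 (3.27 CPM, next 2.9). In wild-type kidneys at E11.5 Ptger3 was highest in replicate 4 (2.41 CPM, next 1.19), Wnk4 in replicate 1 (22 CPM, next 14.5) and Kcnj16 in replicate 3 (2.97 CPM, next 1.94). The kidneys concerned differ from gene to gene. Heterozygous and wild-type kidneys at E11.5 overlapped in all 32 segment genes. A search for genes with effects of opposite sign in all kidneys at the 2 stages could therefore find none.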

How the results depend on the processing

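Between the stages the calls hardly moved: 986 of 990 gene values in wild-type kidneys kept their side of the threshold. Esrrb lost its call in 3 alternatives, without libraries above 5% ribosomal RNA (1.37, adjusted p 0.140), without wild-type replicate 4 at E11.5 and against batch 2 alone (adjusted p 0.0797), and Trpm6 against batch 1 alone. Among knockout values 129 of 186 kept it, and none changed sign. Knockout against wild-type kidneys called 1144 genes and 6 segment genes. Without the replicate block these counts were 439 and 3, and without libraries above 5% ribosomal RNA 349 and 1. In batch 1 alone they were 265 and 1, and in batch 2 alone 168 and 0. With the title prefix as block they were 492 and 2, and the 2 were Mal and, not called in the main fit, Hsd11b2. The trunk covariate, chosen after seeing the data, left 2 segment genes. Knockout against heterozygous kidneys called 595 genes and 1 segment gene: DESeq2 called 1015, and in it Casr has no adjusted p and Mal is called. Without the block these were 154 and 0, without libraries above 5% ribosomal RNA 299 and 0, in batch 1 7 and 0, in batch 2 56 and 0. There 2 segment genes were called with no filter, 2 without sex in the model and 3 with the title prefix as block (Mal, Wnk1 and Hsd11b2, without Casr). Heterozygous against wild-type kidneys at E11.5 called 11 genes, but 32 with no filter, 43 by DESeq2, 1 without the block, 1 without libraries above 5% ribosomal RNA, 0 in batch 1 and 2 in batch 2. At E15.5 they called 104 genes, but 43 with the batch 2 runs and 48 without the heterozygous replicates 1 and 4, the last chosen after seeing the data. The difference between stages called 1 gene, and 3 by DESeq2. By CPM without length, 20 of 32 genes stay within 2 places of their order.

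Leaving out each specimen in turn gave 694 to 1180 genes and 3 to 6 segment genes for knockout against wild-type kidneys, 219 to 769 and 0 to 2 for knockout against heterozygous kidneys, 1 to 17 genes for heterozygous kidneys at E11.5, 66 to 79 at E15.5, 1 to 1 for the difference, 10417 to 11372 for the stages in heterozygous and 10396 to 11496 in wild-type kidneys, with 30 to 30 and 29 to 30 segment genes called. The causes of these shifts were not tested. Fewer specimens remain in each single-batch fit. At E11.5, 16 of the 32 genes were too low to test between genotypes.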
